A study of Homo sapiens with 12 samples.

Results

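The libraries described here are the 3 that were made from HT1080 cells given the siRNA labelled siNC and DMSO, chosen by those labels alone, and they are 3 of the 12 libraries of the series. HT1080 is a human fibrosarcoma line, an established culture of a malignant connective tissue tumour that carries an activating NRAS mutation. The series measured gene expression by RNA sequencing in HT1080 cells only, in 4 groups of 3 libraries each: siNC with DMSO, siNC with poly(dA:dT), the siRNA labelled siQ61K with DMSO, and siQ61K with poly(dA:dT). The label siNC was read as a control siRNA, siQ61K knocks down the mutant NRAS per the design text, and poly(dA:dT) is a synthetic double-stranded DNA. The cells of the siNC DMSO group were therefore not untouched: they had received an siRNA and a solvent, and every library of the series shares the line and an siRNA. The cells come from a single line, so the profile describes that line and not fibrosarcomas in general. Nothing in the labels says whether the 3 libraries came from separate cultures, so the spread given below may be technical. The values are in TPM, a unit of relative transcript abundance that is scaled by transcript length to allow comparison between genes of a library. Some widely used genes were listed low in all libraries, as given below. An order or ratio of 2 genes is therefore one of the listed values. TPM keeps no record of sequencing depth, so the depth is unknown and no counting error can be given. Values of 3 libraries are always given in the order replicate 1, replicate 2, replicate 3, and every value after ± is a standard deviation (SD) over those 3 libraries. A gene counts as detected where it reached at least 1 TPM in all 3 libraries, and ranks are those of the mean level among 55243 unique gene symbols.

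Cells of mesenchymal origin, such as fibroblasts, build their intermediate filaments from vimentin, attach to matrix through integrins and secrete matrix proteins and the proteases that remodel it. RAS proteins are small GTPases that pass signals from surface receptors to the RAF, MEK and ERK kinases, and SOS proteins load them with GTP. Tumour cells with active RAS signalling commonly express growth factors and cytokines, while double-stranded DNA in the cytosol is sensed by cGAS, which signals through STING to the interferon genes.

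The 3 marker genes given for these cells stood at 3 very different heights of the profile. VIM, which encodes vimentin, was listed at 6129, 6110.5 and 5423 TPM, a mean of 5887 ± 402 TPM and rank 8 of all symbols. IL1B, which encodes the inflammatory cytokine interleukin-1 beta, was listed at 264, 287 and 290 TPM, a mean of 281 ± 14.4 TPM and rank 471. It thus stood above all but 3.75% of the detected genes. NRAS was listed at 59.6, 60.6 and 41.4 TPM, a mean of 53.9 ± 10.8 TPM and rank 2695, with 21.5% of the detected genes above it. Replicate 3 was the low library for NRAS and VIM and the high one for IL1B, and the ranges of the 3 genes did not overlap. As a check of the labels, NRAS lay between 43.0 and 51.7 TPM in the siNC poly(dA:dT) libraries, between 15.2 and 19.9 TPM in siQ61K DMSO and between 20.1 and 23.5 TPM in siQ61K poly(dA:dT). All 6 siNC libraries of the series were above all 6 siQ61K libraries.

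In all, 12549 symbols were detected, 22.7% of those in the table, and among 19649 protein-coding symbols 11182 were detected, or 56.9%. Counts of detected members of the gene lists below are to be read beside this share. At least 10 TPM in every library was reached by 7570 symbols, at least 100 TPM by 1252 and at least 1000 TPM by 135. The median detected gene had a mean of 17.3 TPM, and the median detected protein-coding gene 20.2 TPM, so NRAS stood above the middle of the profile. A further 31845 symbols, 57.6%, were listed at 0 in all 3 libraries. The 257 highest genes held 50% of the summed TPM.

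**Figure D1:**
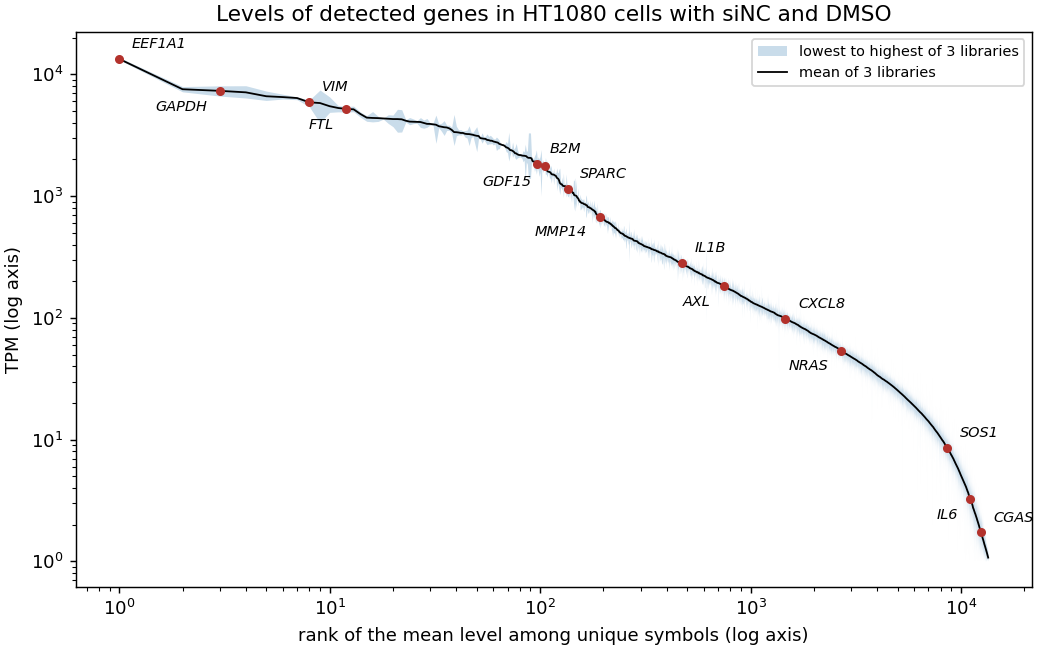
Level in TPM (log axis) of each detected gene against its rank by mean level (log axis) in the 3 siNC DMSO libraries; the line is the mean and the band runs from the lowest to the highest library. VIM stands at rank 8, IL1B at 471, NRAS at 2695 and SOS1 at 8586.

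The top of the profile was filled by the translation machinery. EEF1A1, the elongation factor that brings aminoacyl-tRNA to the ribosome, was the highest gene, at 13744, 13149 and 13228 TPM. Ribosomal protein genes took 21 of the 30 highest places, led by RPS21 with a mean of 7537 ± 377 TPM, and together they held 24.5 ± 0.688% of the summed TPM. Of the 86 ribosomal protein genes, 83 were detected, with a median of 2711 TPM. Mitochondrially encoded genes held 3.00 ± 0.140%, led by MT-ND3, a subunit of respiratory complex I, with a mean of 6601 ± 609 TPM. Their ribosomal RNA MT-RNR2 was lower, at 503 ± 12.7 TPM. Outside these groups the highest genes were GAPDH, VIM, FTL, ALDOA and FTH1, followed by AC004057.1, a processed pseudogene that may share reads with its parent gene and is therefore an uncertain value.

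Cytoskeleton genes held 3.16 ± 0.111% of the summed TPM, VIM included, with 33 of 34 detected and a median of 429 TPM. Glycolysis genes were below them in each library, with 23 of 25 detected, a median of 161 TPM and 2.54 ± 0.142% of the summed TPM. GAPDH was listed at 6628, 7272 and 8034 TPM and ALDOA, the muscle-type aldolase found in most dividing cells, at 4110, 4569 and 4537 TPM. ENO1, PKM and LDHA, which encode enolase, pyruvate kinase and lactate dehydrogenase A, had means of 2746 ± 276, 2125 ± 213 and 2179 ± 91.9 TPM. LDHA was above LDHB, its heart-type partner at 1689 ± 179 TPM, in each library, by 0.37 ± 0.10 on the log2 scale. The liver form of pyruvate kinase, PKLR, was listed at 0 in all 3 libraries. At the cell surface, the glucose transporter SLC2A1 stood at 127 ± 16.1 TPM and the lactate exporter SLC16A3 at 229 ± 31.8 TPM.

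In the tricarboxylic acid cycle list 25 of 27 genes were detected, with a median of 87.5 TPM, and the highest was MDH2, mitochondrial malate dehydrogenase, at 565 ± 50.9 TPM. IDH1, the cytosolic isocitrate dehydrogenase that is mutated in this line, was listed at 118, 119 and 97.3 TPM, and its mitochondrial relative IDH2 at 17.2, 18.4 and 22.3 TPM. IDH1 was above IDH2 by 2.54 ± 0.36 on the log2 scale, and their values did not overlap. Sterol and fatty acid synthesis showed 25 of 26 genes detected, with a median of 99.8 TPM. Its highest members were SCD, the stearoyl-CoA desaturase, at 451 ± 35.3 TPM and FDPS, FDFT1 and FASN between 336 and 385 TPM.

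Iron storage genes were among the highest of all. FTL, the ferritin light chain, was listed at 5439, 5246 and 4892 TPM and FTH1, the heavy chain, at 4478, 4515 and 4100 TPM. Together they held 0.989 ± 0.0501% of the summed TPM, and FTL was above FTH1 by 0.25 ± 0.03 on the log2 scale in every library. Of 31 genes of iron handling and ferroptosis, the iron-dependent death by lipid peroxidation, 24 were detected. GPX4, which reduces lipid peroxides, stood at 396, 398 and 344 TPM, and the transferrin receptor TFRC at 310, 339 and 278 TPM. These overlapped, so their order is not settled by 3 libraries. SLC7A11, the cystine transporter, was listed at only 3.51, 3.43 and 2.93 TPM, lower than GPX4 by 6.85 ± 0.03 on the log2 scale, while SLC3A2, its heavy chain partner, stood at 105 ± 6.25 TPM. The iron exporter SLC40A1 was near 0, at 0.207 ± 0.126 TPM.

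Antioxidant genes were widely detected, 20 of 22, with a median of 168 TPM. The metallothionein MT2A led with a mean of 1828 ± 253 TPM, and the peroxiredoxin PRDX1 and the thioredoxin TXN followed with 1574 ± 174 and 892 ± 137 TPM.

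The markers of cell types matched a mesenchymal label in part. Of 20 mesenchymal markers, 16 were detected, with a median of 38.1 TPM. After VIM the highest were LGALS1, a galectin, at 2995, 3218 and 3480 TPM, and the calcium-binding S100A6 at 1842, 1902 and 2023 TPM. SPARC, a matrix glycoprotein, was listed at 995, 1238 and 1184 TPM, the hyaluronan receptor CD44 at 608 ± 80.7 TPM and fibronectin, FN1, at 444 ± 14.1 TPM. The ranges of these 6 did not overlap in that order. N-cadherin, CDH2, was lower, with a mean of 46.5 ± 5.78 TPM. In contrast, 4 markers often used for fibroblasts or mesenchymal stromal cells were not detected: NT5E had a mean of 0.267 TPM, PDGFRA 0.0798 TPM, FAP 0.0700 TPM and THY1 0.0383 TPM.

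The list of 22 transcription factors, coactivators and chromatin proteins tied to mesenchymal cells, not all specific to them, had 19 detected. HMGA1 and HMGA2, chromatin proteins high in embryonic and tumour cells, stood at 844 ± 181 and 122 ± 7.31 TPM. WWTR1 and YAP1, the coactivators of the Hippo pathway, stood at 193 ± 16.0 and 63.8 ± 3.99 TPM. The classic inducers of epithelial to mesenchymal transition were lower: TWIST2 had a mean of 42.8 ± 2.84 TPM, ZEB1 24.7 ± 3.36 TPM, SNAI2 20.8 ± 2.92 TPM, TWIST1 14.7 ± 1.03 TPM and SNAI1 10.1 ± 1.03 TPM. Not detected were PRRX1, common in fibroblasts, with a mean of 0.0485 TPM, TCF21 with 0.0989 TPM and TBX15 with 0.0102 TPM.

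Of 20 epithelial markers 6 were detected and 6 were listed at 0 in all 3 libraries. The highest were keratins of simple epithelia. KRT8 was listed at 343, 397 and 440 TPM and its partner KRT18 at 169, 185 and 211 TPM. KRT8 was above KRT18 by 1.06 ± 0.04 on the log2 scale and below VIM by 3.91 ± 0.27. E-cadherin, CDH1, the adhesion molecule that defines epithelia, was listed at 0 in all 3 libraries, together with GRHL2, OVOL1, CDH3, KRT5 and KRT14, and EPCAM was listed at 0, 0.120 and 0 TPM.

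Markers of other lineages were rare. Skeletal muscle had 1 of 14 detected: TNNT1, slow troponin T, at 96.8 ± 11.9 TPM, while MYOD1, MYOG, MYF5 and PAX7 were listed at 0. Melanocyte and neural markers had 4 of 16, all from the neural side and led by the tubulin TUBB3 at 163 ± 10.5 TPM. ENO2 stood at 56.7 ± 4.90, NEFL at 20.2 ± 1.96 and NCAM1 at 13.8 ± 3.17 TPM, while SOX10 was at 0 in every library. Blood cell markers had 3 of 16: the lysosomal protein CD68 at 183 ± 31.8 TPM and, much lower, ITGAX at 4.32 ± 0.302 and CSF1R at 3.68 ± 0.395 TPM. The defining leukocyte marker PTPRC had a mean of 0.00564 TPM. Of 9 endothelial markers, TIE1 alone was detected, at 82.3 ± 12.9 TPM, and of 16 liver, fat, bone and cartilage markers SPP1 alone, at 37.8 ± 7.77 TPM.

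**Figure D2:**
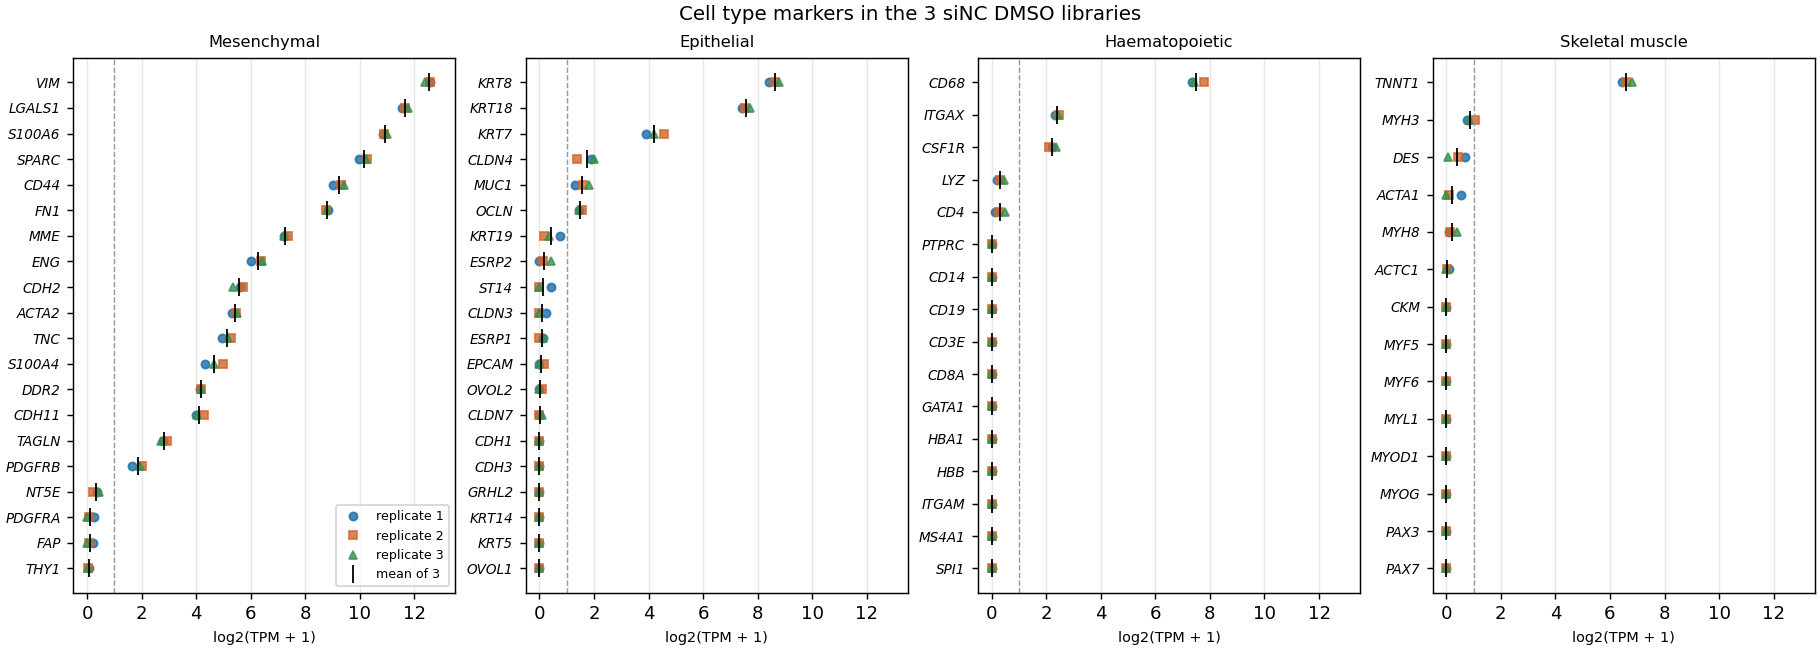
Level of each marker on the log2(TPM + 1) scale in the 3 siNC DMSO libraries, one panel per marker list, with a tick at the mean and a dashed line at 1 TPM. Of the mesenchymal markers 16 of 20 were detected, against 6 of 20 epithelial, 3 of 16 haematopoietic and 1 of 14 skeletal muscle markers.

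Among the collagen chains given here, those of basement membrane and microfibrillar collagen were listed higher than the 3 fibrillar chains. Of 24 collagen genes 15 were detected, or 62.5%, near the 56.9% of all protein-coding symbols. COL4A2 and COL4A1, chains of the basement membrane collagen, had means of 159 ± 10.3 and 78.0 ± 3.61 TPM, and COL6A3, COL6A1 and COL6A2, chains of the microfibrillar collagen VI, 157 ± 12.6, 87.1 ± 9.68 and 63.3 ± 5.46 TPM. The fibrillar chains that dominate ordinary fibroblasts were low, and of the 3 given here COL1A1 alone was detected. COL1A1 was listed at 1.44, 4.2 and 2.38 TPM, COL1A2 at 0.683, 0.668 and 1.31 TPM and COL3A1 at 0.0359, 0.0205 and 0.0152 TPM. COL4A2 was above COL1A1 by 6.03 ± 0.74 on the log2 scale. Among other matrix genes, 29 of 34 were detected, including the laminin chains LAMB3 at 344 ± 49.4 and LAMC1 at 159 ± 8.70 TPM and LOXL2, a collagen crosslinking enzyme, at 238 ± 47.2 TPM.

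Of 29 matrix proteases and protease inhibitors 22 were detected, 11 of them with a mean of at least 100 TPM, and the median of the list was 49.0 TPM. Among the low members MMP1, a collagenase, stood at 5.34 ± 0.988 TPM, and MMP10 and MMP12 were listed at 0 in all 3 libraries. MMP14, a membrane-bound metalloprotease that activates MMP2, was listed at 544, 714 and 778 TPM. MMP2 and MMP9, the gelatinases by which this line is often assayed, stood at 78.1, 88.4 and 85.8 TPM and at 30.4, 31.3 and 32.4 TPM. MMP14 exceeded MMP2 by 3.00 ± 0.19 and MMP2 exceeded MMP9 by 1.42 ± 0.07 on the log2 scale, with no overlap. In the plasminogen system, the urokinase PLAU was listed at 582, 686 and 654 TPM and its receptor PLAUR at 274, 258 and 283 TPM. The tissue inhibitors TIMP1 and TIMP2 had means of 400 ± 33.6 and 227 ± 10.05 TPM. PLAU was above PLAT, the tissue-type activator at 155 ± 8.39 TPM, by 2.05 ± 0.07 on the log2 scale.

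Of 25 integrin genes 14 were detected, or 56.0%, about the share of all protein-coding symbols (56.9%). ITGB1, the beta chain shared by most matrix receptors, led with 879 ± 97.2 TPM. The alpha chains ITGA3 and ITGA5, which bind laminin and fibronectin, followed with 346 ± 55.7 and 305 ± 32.3 TPM, and their values overlapped. ITGA6 and ITGB5 overlapped as well, at 221 ± 20.2 and 207 ± 7.40 TPM.

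Within the RAS family, NRAS was not the highest gene. HRAS was listed at 74.6, 72.3 and 82.6 TPM, and the related RRAS and RRAS2 had means of 103 ± 10.8 and 96.3 ± 15.7 TPM. HRAS was above NRAS in each library and the ranges did not overlap, but the gap differed between libraries, with log2 ratios of 0.32, 0.25 and 1.00. Base composition moved with this order: the reference transcripts of HRAS are 65.8% G and C and those of NRAS 38.4%, and replicate 3 read GC-rich genes higher than the other libraries did. Its part in the ratio was not tested. The table gives 1 value per gene, so the mutant and normal alleles of NRAS cannot be told apart.

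Below RAS, 18 of 19 genes of the RAS, RAF, MEK and ERK list were detected. Of the RAF kinases, ARAF was listed at 31.2, 33.6 and 36.0 TPM and BRAF at 9.78, 12.4 and 10.2 TPM, so BRAF was the lower of the pair, with no overlap. MAP2K2, which encodes MEK2, was above MAP2K1 in each library, with means of 186 ± 15.8 and 98.4 ± 5.13 TPM. MAPK3, which encodes ERK1, stood at 39.5 ± 8.57 TPM.

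Of the regulators of RAS, 18 of 22 were detected. SOS1, the exchange factor named in the title of the series, was listed at 8.57, 10.6 and 6.68 TPM, a mean of 8.62 ± 1.96 TPM and rank 8586. SOS2 was listed at 11.9, 13.2 and 9.42 TPM. Their ranges overlapped, although SOS2 was the higher of the pair within every library, by 0.43 ± 0.10 on the log2 scale. The adaptors that bring SOS to receptors were higher, with SHC1 at 117 ± 6.91, PTPN11 at 71.9 ± 7.84 and GRB2 at 62.1 ± 10.4 TPM. Of the GTPase-activating proteins that switch RAS off, RASA1 stood at 113 ± 19.6 TPM and NF1 at 19.1 ± 2.92 TPM.

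Genes known to follow ERK activity were detected in 21 of 24 cases, with a median of 49.0 TPM. IER3 was listed at 487, 475 and 399 TPM, PHLDA1 at 375, 382 and 323 TPM and PHLDA2 at 336, 334 and 279 TPM. FOSL1, an AP-1 subunit, was listed at 238, 249 and 280 TPM, whereas FOS, a short-lived subunit of the same factor, was listed at 2.06, 2.69 and 1.32 TPM. FOSL1 exceeded FOS by 7.04 ± 0.62 on the log2 scale. The feedback phosphatases differed as widely: DUSP5 had a mean of 118 ± 1.41 TPM and DUSP4 74.8 ± 5.98 TPM, while DUSP6 was listed at 0.648, 1.33 and 1.26 TPM. Among the Sprouty inhibitors, SPRY2 stood at 71.5 ± 3.95 and SPRY4 at 17.6 ± 1.05 TPM, and SPRY1 at 0.804 ± 0.268 TPM. The list was therefore not uniformly high, and DUSP6 and SPRY1, both much used as readouts of ERK, were near its bottom, with FOSB below both.

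**Figure D3:**
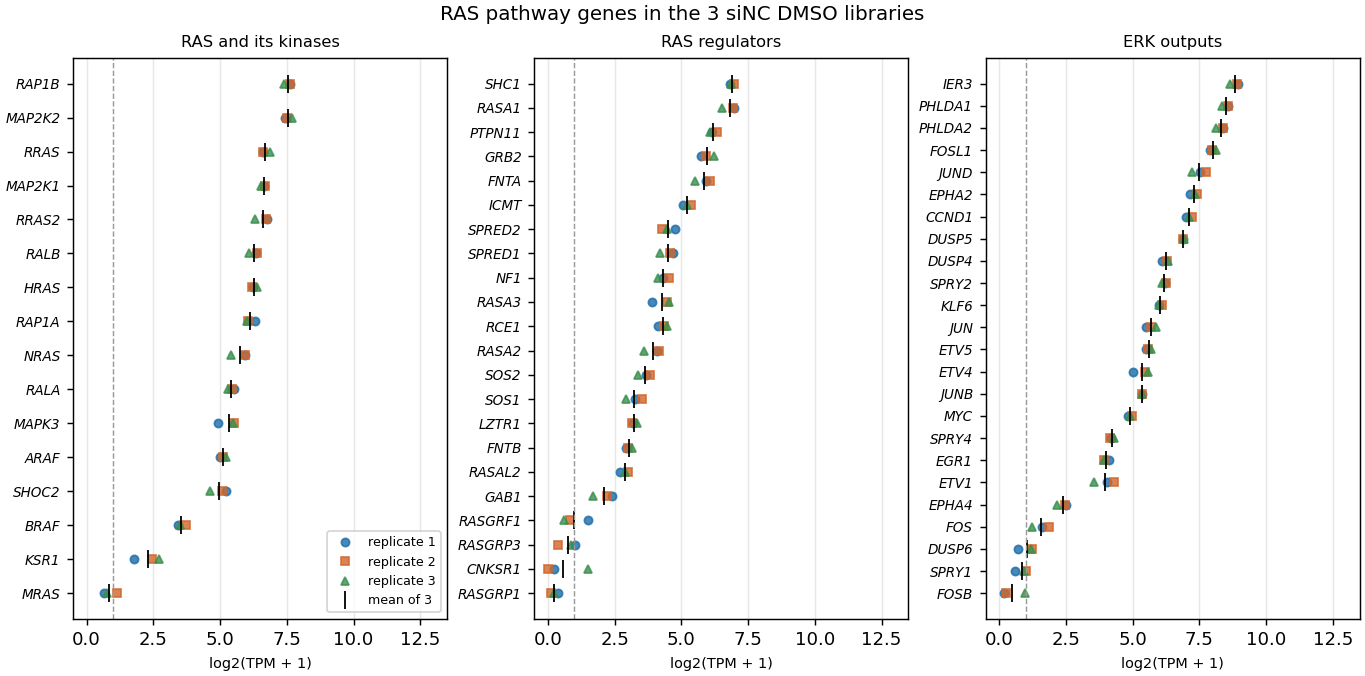
Level on the log2(TPM + 1) scale of the RAS family and kinase genes reported here, RAS regulators and ERK output genes in the 3 siNC DMSO libraries, with a tick at the mean and a dashed line at 1 TPM. HRAS and NRAS have means of 76.5 and 53.9 TPM, SOS1 and SOS2 overlap, and IER3 at 454 TPM leads the ERK outputs while DUSP6 lies at 1.08 TPM.

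Of 31 receptor tyrosine kinases, the surface receptors that feed RAS, 14 were detected, or 45.2%, a smaller share than that of all protein-coding symbols. AXL was listed at 168, 189 and 191 TPM and EPHA2 at 141, 168 and 162 TPM. MET, the receptor of hepatocyte growth factor, stood at 59.7 ± 9.54 TPM and EGFR at 16.5 ± 2.30 TPM, so AXL exceeded EGFR by 3.48 ± 0.12 on the log2 scale. KIT, RET, ALK and ERBB4 had means of 0.0242 TPM or less.

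Of 32 growth factors 21 were detected. GDF15, a stress-induced relative of TGF-beta, was listed at 1755, 1738 and 1776 TPM and stood at rank 105. TGFB1 followed with 343 ± 12.2 TPM, and VEGFA, the main inducer of new vessels, with 128 ± 12.7 TPM. GAS6, the ligand of AXL, stood at 123 ± 22.2 TPM. The EGFR ligands TGFA and HBEGF overlapped, at 78.5 ± 10.9 and 67.4 ± 2.32 TPM, while AREG was listed at 0.199, 1.37 and 1.54 TPM. HGF and the insulin-like growth factor IGF1 were listed at 0 in all 3 libraries.

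Cytokines and chemokines were few: 10 of 27 were detected and 7 were listed at 0 in all 3 libraries. MIF, a cytokine expressed by most cells, led with 1123 ± 66.1 TPM, and IL1B came next. CXCL8, which attracts neutrophils, was listed at 120, 97.1 and 78.4 TPM, IL11 at 21.3, 22.2 and 25.1 TPM and IL24 at 15.8, 16.7 and 14.6 TPM. IL1A, the sister cytokine of IL1B, was listed at 14.6, 13.8 and 12.5 TPM. IL1B thus exceeded IL1A by 4.36 ± 0.18 and CXCL8 by 1.53 ± 0.38 on the log2 scale. IL6 was listed at 4.15, 2.44 and 3.17 TPM, TNF at 0, 0.0525 and 0 TPM, and CXCL1 at 0 in all 3 libraries.

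The bases before the annotated start sites of IL1B, IL1A and CXCL8, and of GDF15 and MT2A as high-level genes of other kinds, are shown because these genes span the range from 13.6 to 1828 TPM. Each line gives the 100 bases upstream of the start, 5′ to 3′ on the gene's own strand, from the RefSeq promoter table on build GRCh38.p14. Capitals mark the letters TATAAA, searched on the gene's strand only, from 40 to 15 bases before the start, and TGANTCA, a form of the AP-1 motif that reads the same on both strands.
IL1B, chr2:112836780-112836879, minus strand: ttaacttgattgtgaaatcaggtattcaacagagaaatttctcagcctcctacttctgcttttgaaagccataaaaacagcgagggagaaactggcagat
IL1A, chr2:112784494-112784593, minus strand: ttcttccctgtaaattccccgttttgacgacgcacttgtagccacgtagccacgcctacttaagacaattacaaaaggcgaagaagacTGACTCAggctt
CXCL8, chr4:73740469-73740568, plus strand: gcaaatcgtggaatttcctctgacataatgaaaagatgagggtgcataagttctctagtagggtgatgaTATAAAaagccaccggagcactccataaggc
GDF15, chr19:18386058-18386157, plus strand: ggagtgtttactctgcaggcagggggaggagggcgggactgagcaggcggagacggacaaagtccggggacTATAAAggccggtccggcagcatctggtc
MT2A, chr16:56608484-56608583, plus strand: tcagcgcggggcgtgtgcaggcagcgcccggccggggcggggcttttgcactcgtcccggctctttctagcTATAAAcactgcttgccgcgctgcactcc

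TATAAA was present in that window in CXCL8, GDF15 and MT2A, and these letters were not there in IL1B and IL1A. Across 15080 protein-coding genes with a promoter in the table, the letters were in 9 of the highest 100 genes, in 5.40% of the highest 500, in 1.44% of all 9113 detected genes and in 7.04% of 5967 genes not detected. Over all 27305 promoters of the table the share was 2.54%. Among the highest 100 the genes with it were RPLP0, PPIA, ANXA2, RPS28, MT2A, RPL22L1, GDF15, EEF2 and DHRS2. TGANTCA was sought over 250 bases before the start and was in 3.00% of the highest 100 genes, 3.76% of the detected genes, 6.87% of genes not detected and 6.60% of all promoters. Of the 9 detected cytokine genes with a promoter in the table, 3 held it: IL1A, IL11 and CXCL8. A match is a description of the letters and not evidence of a bound factor.

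Components of interleukin-1 release and response were unevenly listed, with 11 of 17 detected and a median of 5.72 TPM. IRAK1, a kinase of the receptor complex, stood at 127 ± 14.5 TPM and the receptor accessory chain IL1RAP at 33.1 ± 5.40 TPM, but the ligand-binding receptor IL1R1 at 0.420 ± 0.129 TPM. CASP1, the protease that cleaves pro-interleukin-1 beta, was listed at 6.30, 3.75 and 6.16 TPM. NLRP3 and AIM2, sensors that assemble it into inflammasomes, stood at 8.66 ± 1.46 and 12.5 ± 0.511 TPM, and the pore former GSDMD at 28.7 ± 1.38 TPM. The adaptor PYCARD, which joins sensor and protease, was listed at 0 in all 3 libraries, as was the receptor antagonist IL1RN, and the adaptor MYD88 at 0, 0.0916 and 0.0324 TPM. The NF-kappaB list had 13 of 14 genes detected, all below 40 TPM in the mean, with RELA at 37.2 ± 2.31 TPM and NFKB1 at 17.6 ± 1.77 TPM.

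Of 30 genes for the sensing of nucleic acids, 25 were detected, with a median of 10.7 TPM. IFI16, a DNA-binding sensor, was listed at 122, 125 and 109 TPM. STING1, which encodes STING, was listed at 49.4, 55.3 and 59.8 TPM, and CGAS, which encodes the enzyme that activates it, at 2.02, 1.95 and 1.22 TPM. STING1 was thus above CGAS by 5.02 ± 0.53 on the log2 scale, and CGAS stood at rank 12458. The kinase TBK1 and the factor IRF3, which act after STING, were listed at 32.5, 27.1 and 21.9 TPM and at 34.4, 45.1 and 39.5 TPM. TREX1, the nuclease that degrades cytosolic DNA, was listed at 20.1, 24.1 and 8.79 TPM, with replicate 3 apart from the others. The RNA sensor IFIH1 was below 1 TPM in every library.

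No interferon gene was detected. Of 21 interferon genes 20 were listed at 0 in all 3 libraries, and the exception, IFNE, was listed at 1.29, 1.23 and 0.980 TPM. Of 19 genes for interferon receptors and their signalling, 18 were detected, with a median of 21.1 TPM. The receptor chains IFNAR1 and IFNAR2 stood at 21.1 ± 4.29 and 17.6 ± 1.69 TPM, and the kinase JAK1 at 38.8 ± 1.61 TPM. The exception was IFNLR1, a receptor of type III interferons, listed at 0.

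Interferon-stimulated genes were detected in 26 of 36 cases, at a median of 4.54 TPM. IFITM3 and IFITM2, membrane proteins that hinder virus entry, stood far above the rest, at 617, 580 and 594 TPM and at 522, 493 and 441 TPM. LGALS3BP followed with 207 ± 19.03 TPM. Many of the commonly used markers were low, with IFIT1 at 6.51 ± 0.591 TPM, OAS1 at 4.72 ± 1.02 TPM, MX1 at 1.25 ± 0.418 TPM and IFI44L at 0.0303 ± 0.0269 TPM. ISG15 was listed at 0 in all 3 libraries.

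**Figure D4:**
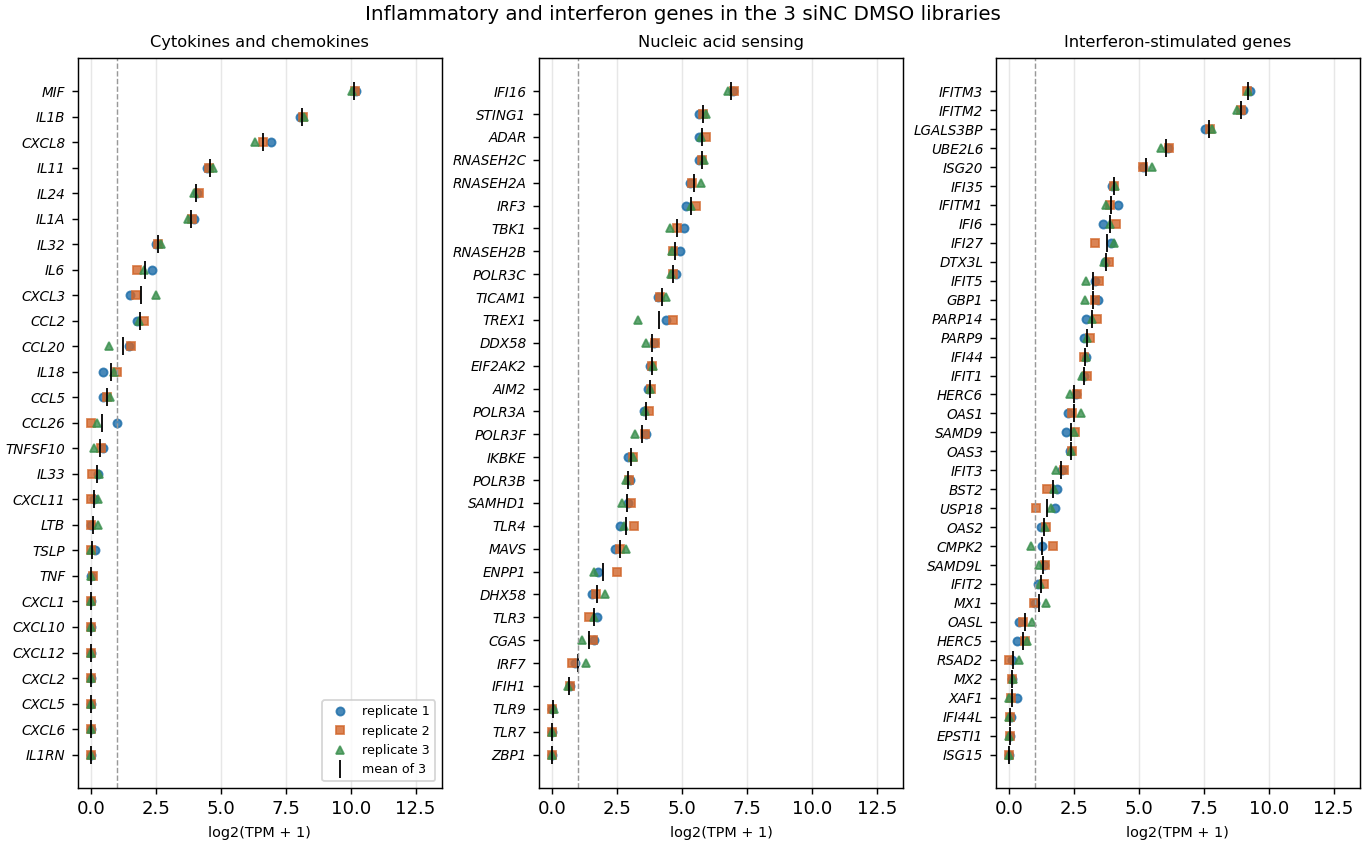
Level on the log2(TPM + 1) scale of cytokines and chemokines, nucleic acid sensing genes and interferon-stimulated genes in the 3 siNC DMSO libraries, with a tick at the mean and a dashed line at 1 TPM. IL1B is second to MIF among the cytokines, IFI16 at 119 TPM leads the sensing genes and CGAS lies at 1.73 TPM, and IFITM3 and IFITM2 stand apart from the other interferon-stimulated genes.

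Antigen presentation genes were detected in 18 of 24 cases. B2M, the constant chain of MHC class I, was listed at 1985, 1805 and 1723 TPM, whereas the heavy chains HLA-B and HLA-C stood at 18.7 ± 3.45 and 16.7 ± 4.34 TPM and overlapped. These heavy chain genes vary between people and resemble each other, so reads that differ from the reference may be lost or shared and their levels are uncertain. HLA-DRA, a class II chain, had a mean of 0.614 ± 0.348 TPM. Of 20 genes for immune checkpoint and related ligands 13 were detected, led by NECTIN2 at 128 ± 19.99, CD276 at 104 ± 7.01 and PVR at 94.0 ± 13.8 TPM. CD274, which encodes PD-L1, stood at 6.93 ± 0.746 TPM, below CD276 by 3.92 ± 0.25 on the log2 scale.

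Genes of the cell cycle were broadly present, with 33 of 36 detected and a median of 54.5 TPM. CCNB1, the mitotic cyclin, had a mean of 322 ± 27.7 TPM, CDK4 320 ± 25.7 TPM and the replication clamp PCNA 287 ± 28.3 TPM. CDK4 was above CDK6, its close relative, by 4.12 ± 0.15 on the log2 scale. The proliferation marker MKI67 was listed at 23.6, 43.7 and 36.8 TPM. CDKN1A, an inhibitor of the cyclin-dependent kinases, BAX, which promotes cell death, and the ubiquitin ligase MDM2 had means of 235 ± 11.9, 343 ± 57.3 and 98.4 ± 13.8 TPM. Of 27 apoptosis genes 23 were detected, and among the protective members MCL1 stood at 317 ± 19.2, BCL2L1 at 55.1 ± 10.6 and BCL2 at 2.41 ± 0.501 TPM, with no overlap.

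CDKN2A and CDKN2B, neighbouring inhibitors of CDK4 and CDK6 on the short arm of chromosome 9, were listed at 0 in all 3 libraries, and CDKN2A was at 0 in all 12 libraries of the series. In the RefSeq gene order from MLLT3 to ELAVL2 around them there are 25 protein-coding genes. Of these, 17 were listed at 0: CDKN2A, CDKN2B and 15 of the 16 interferon genes there. Interferon genes outside this order, IFNG and IFNL1 among them, were listed at 0 as well, so zeros of interferon genes are not particular to this place. MTAP, next to CDKN2A and an enzyme of methionine salvage used in most tissues, was listed at 0.165, 0.174 and 0.129 TPM. Just 3 of the 25 were detected, beside 56.9% of all protein-coding symbols. They were FOCAD at 22.0 ± 1.82, MLLT3 at 19.4 ± 2.06 and KLHL9 at 17.7 ± 1.37 TPM. The contrast with 56.9% rests largely on the interferon genes, which are 16 of the 25. None of 21 interferon genes, inside or outside this order, was detected. KLHL9 lies among the interferon genes, so the low stretch was not unbroken. The noncoding CDKN2B-AS1, which overlaps CDKN2B on the other strand, was listed at 2.25, 2.30 and 1.90 TPM. Whether these genes are absent from the genome of the line was not tested, since the files hold RNA levels only.

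**Figure D5:**
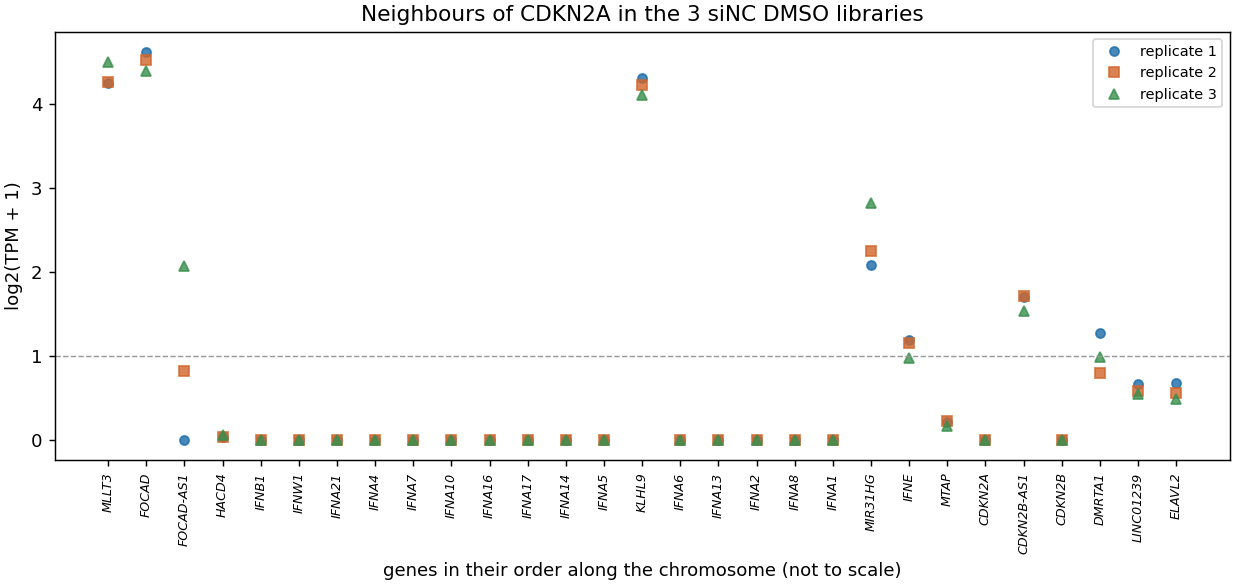
Level on the log2(TPM + 1) scale in the 3 siNC DMSO libraries of the genes around CDKN2A, in their order along the chromosome and not to scale, with a dashed line at 1 TPM. MLLT3, FOCAD and KLHL9 lie between 17.7 and 22.0 TPM, MTAP lies at 0.156 TPM, and CDKN2A, CDKN2B and 15 of 16 interferon genes lie at 0.

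A low or zero listing in this table needs care, because some genes that nearly every cell uses were low in all libraries. The cytoskeletal actin gene ACTB was listed at 32.7, 33.1 and 40.6 TPM, while its sister ACTG1 was listed at 2727, 2867 and 2451 TPM, a difference of 6.24 ± 0.29 on the log2 scale. TMSB4X, an actin-binding peptide, stood at 57.0 ± 11.9 TPM beside TMSB10 at 2454 ± 772 TPM. Across all 12 libraries ACTB lay between 32.7 and 74.1 TPM and TMSB4X between 34.3 and 70.6 TPM. Among ribosomal proteins, 6 of 86 were below 100 TPM, with RPS27 at 41.6 ± 5.43 TPM. Of 141 members of 8 large complexes, among them the proteasome and RNA polymerase II, 140 were detected, a count that does not show whether any of them is listed too low. The exception was NDUFA6, listed at 3.34, 0 and 2.71 TPM. A gene such as PYCARD, GSS or ISG15 is therefore described only as listed at 0.

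The 3 libraries resembled each other closely. Pearson correlations on the log2(TPM + 1) scale, across genes that are not independent replicates, were 0.976 for replicates 1 and 2, 0.971 for 1 and 3 and 0.977 for 2 and 3. Of 13601 genes with a mean of at least 1 TPM, 929, or 6.83%, differed at least 2-fold between the highest and the lowest library. This was counted on the log2(TPM + 1) scale, and 382 of these genes were protein-coding. Of the 904 members of the gene lists at that level, 28 did so. On that scale a low gene must differ by more than 2-fold in TPM to be counted. Among protein-coding genes with a mean of at least 10 TPM the widest included AP003419.1, RGPD6, SCOC and H4C14. MCM4, a subunit of the replicative helicase, was listed at 14.7, 38.4 and 57.0 TPM. Apart from these genes, the typical ratio between libraries shifted with base composition. Over the 3390 genes lowest in GC content the median log2 ratio of replicate 3 to replicate 1 was -0.26. Over the 3390 genes highest in GC content that median was 0.23. The genes that differed 2-fold were not confined to either end of GC content. Their count after correction for GC content and length is given below.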

How the data were processed

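Total RNA of HT1080 cells was sequenced, per the labels' protocols, from libraries made with a NEBNext Ultra kit on a NovaSeq 6000 instrument. The deposited values are TPM per gene, which the authors made with Salmon 0.8.0, with hg19 as the build, per the submitters' processing notes. Which annotation served, and how transcript values were combined per gene, is not given in the sources used here. Because TPM carries no depth, no interval from counts is given. The listed TPM sum to 966575, 967331 and 964882 in the 3 libraries, below 1000000, and shares are of these sums.

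Table columns were matched to samples by reading their names against the sample titles. Of 56227 entries, 984 that share 58 symbols were left out of gene counts and ranks. Levels, SDs, ranks, shares and within-library log2 ratios were computed with Python 3.11.15, pandas 2.3.3 and numpy 2.4.6, and correlations with scipy 1.17.1, on log2(TPM + 1) over genes with a mean of at least 1 TPM. The scripts were tested on simulated data. Gene types, GC content and length came from GENCODE release 29, and promoters and gene order from RefSeq, both on a later build than hg19, so symbols alone were matched and no coordinate was taken over.

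No test was run, because only 1 group is described, and 3 libraries against 3 could not go below p = 0.1 in an exact permutation test. The members and the 50 gene lists (1232 entries, 20 not found) were chosen with earlier results of these data known, and the 8 complexes were added after seeing the levels. Over the lists 876 of 1178 distinct members were detected, or 74.4%. Named genes were the 3 given markers, the 30 highest genes, the 20 highest outside translation and mitochondrial genes, list members with the 6 highest first, the 10 most variable genes and the 5 genes on each side of NRAS in rank. Alternatives left out each library and changed the threshold, scaling, pseudocount and total. Some genes of the lists are not reported here.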

Additional observations from a re-analysis of the deposited data

How the results depend on the processing

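No paired analysis was possible because 1 group alone was described. For 24 of the named genes, levels kept within 0.891 to 1.12 times the value given when a library was left out, 0.992 to 1.03 times under other scalings and 0.969 to 1.11 times with the median in place of the mean. Of 904 list members with a mean of at least 1 TPM, 842 moved by at most 1.2 times with any library left out and 11 by over 1.5 times. The widest of the 11 was GCLC, with means from 0.589 to 5.69 TPM. RN7SK, at 105 TPM, was not among the 11 and ranged from 71.6 to 139 TPM. Of the 168 recomputed levels of the 24 genes 167 moved by less than 1 SD, as did 164 of 168 ranks, and the exceptions were GDF15, at 1810 TPM without mitochondrially encoded genes and at ranks 98 to 101. Leaving out a library or taking the median cannot move a mean of 3 libraries by 1 SD of the same values. Under those settings the count of levels was therefore fixed in advance and shows nothing about stability. Of 394 recomputed list counts 382 stayed within 1.5 times. At least 10 TPM in every library left 7570 detected genes. The ribosomal protein share was 25.2% of a total without mitochondrially encoded genes and 23.6% of 1000000 TPM, a total chosen after seeing the data. The share of the top 100 genes was 34.4% and 34.6% under the same settings, and 18.1% without ribosomal protein genes. Without those genes the mitochondrial share was 3.97% and the glycolysis share 3.36%. These shares moved because the total changed, as did the set of counted genes for the top 100. The mean Pearson correlation of 0.974 ranged from 0.971 to 0.977 with a library left out, and was 0.946 with a pseudocount of 0.1, 0.986 with a pseudocount of 5 and 0.990 with no filter. With a library left out, fewer values enter each range. The count of 929 genes that differed 2-fold on the log2(TPM + 1) scale then ranged from 480 to 565. It was 1542 with a pseudocount of 0.1, 177 with a pseudocount of 5 and 248 at a mean of at least 5 TPM, and 854 after correction for GC content and length. With fewer low genes counted, at 5 TPM in every library, the detected epithelial markers were 3, the haematopoietic markers 1, the cytokines 6, the interferon-stimulated genes 16, the checkpoint ligands 8, the HOX genes 15 and the histone genes 5. At 0.5 TPM the muscle markers were 2, the interferons 1 and the genes chosen around CDKN2A 5 in place of 3. IFNE was detected when replicate 3 was left out and when mitochondrially encoded genes were taken from the total. Depth is unknown, so a value below 1 TPM cannot be told from a gene that is off.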

Other observations

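HOX genes, the homeobox genes whose expression records position along the body axis, were detected in 24 of 39 cases. That is 61.5%, near the 56.9% of all protein-coding symbols. HOXA9 was listed at 54.3, 54.7 and 41.5 TPM and HOXB9 at 44.1, 47.5 and 46.9 TPM, and the pair overlapped. All 7 genes of paralog groups 9 and 10 were detected, against 3 of 8 in groups 1 to 3, 12 of 15 in groups 4 to 8 and 2 of 9 in groups 11 to 13. By cluster, HOXB had 8 of 10 genes detected, HOXA 6 of 11, HOXC 6 of 9 and HOXD 4 of 9.

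Cancer-testis antigens, genes mostly silent outside the germ line, were detected in 17 of 26 cases. PAGE5 was listed at 297, 261 and 284 TPM and CTAG2 at 233, 242 and 282 TPM, which overlapped, and MAGEB2 at 204, 209 and 202 TPM. MAGEA3 and MAGEA6, at 99.5 ± 8.53 and 88.4 ± 2.38 TPM, are near-identical copies, as are CTAG1B and its neighbour copy, so their split is uncertain. MAGEA4 was listed at 0, 0.102 and 0 TPM. SNHG5, a host of small nucleolar RNAs, was the highest long noncoding RNA at 2516, 2178 and 2049 TPM, with SNHG29 at 1000.2 ± 16.1 and GAS5 at 705 ± 25.5 TPM. The polymerase III transcript RN7SK, which has no poly(A) tail, was listed at 107, 36.3 and 171 TPM. A separate entry named 7SK, of similar length (331 against 328 bases), was listed at 0, 52.3 and 0 TPM. Replicate 2 was thus the low library for RN7SK and the only one with a value for 7SK. Whether the 2 entries share reads was not tested, so the level of RN7SK is uncertain.

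TMEM158, a membrane protein gene induced by active RAS in other cells, was listed at 3101, 2969 and 2774 TPM and stood at rank 55, 11th among the genes outside translation and mitochondria. In rank NRAS stood between HMCES and RGL2, with means of 53.9 and 53.8 TPM.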
